A study of Mus musculus with 12 samples.

Results

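The 10 genes described here, of calcium extrusion, storage, and release, were chosen by name and followed over genotype (Ctrl and Y/T KO) and tissue (colon and bladder) in mice: the plasma membrane calcium pumps *Atp2b1* and *Atp2b4*, the reticulum calcium pump *Atp2a2* and its inhibitor *Pln*, the release channels *Itpr1*, *Ryr2*, and *Ryr3*, the store sensor *Stim1* with its channel *Orai1*, and the store buffer *Casq2*. All 10 are protein coding, all 10 were found in the gene tables, out of 54532 genes, and all 10 passed the filter on low values in both tissues. The measure is TPM (a share of the library's transcripts corrected for transcript length), so levels can be compared between genes.

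Contraction of smooth muscle starts when free calcium in the cytosol rises, and relaxation follows when it is removed again. Calcium leaves the cell through the plasma membrane pumps and returns to the sarcoplasmic reticulum through SERCA pumps, of which *Atp2a2* encodes SERCA2. Phospholamban, the product of *Pln*, slows that pump until it is phosphorylated. Stored calcium is held by calsequestrin, is released through IP3 and ryanodine receptors, and when the store empties STIM1 senses it and opens ORAI1 channels in the plasma membrane.

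Distal colon and urinary bladder were taken as whole tissue from male mice aged 5 to 7 weeks, 7 days after the first of 5 injections of 1 mg tamoxifen per mouse per day. Both genotypes carried floxed *Yap1* and *Wwtr1* (encoding YAP and TAZ). The Y/T KO mice also carried the tamoxifen-inducible *Myh11CreERT2*, which is driven by the smooth muscle myosin promoter and so directs recombination to smooth muscle, and the Ctrl mice lacked Cre but got the same tamoxifen. Each of the 4 groups had 3 libraries of 1 mouse each, from 9 mice in all: Ctrl colon from mice 788, 786, and 787, Y/T KO colon from 759, 783, and 780, Ctrl bladder from 784, 785, and 788, and Y/T KO bladder from 782, 783, and 780. In what follows the values of a group are given in that order.

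Aligned sequence ran from 2.80 to 3.94 gigabases per library. *Yap1* lay at 45.8 to 54.9 TPM in Ctrl colon and 41.3 to 47.0 in Y/T KO colon, and at 98.6 to 110 TPM in Ctrl bladder and 69.4 to 72.1 in Y/T KO bladder, whereas *Wwtr1* was not lower, with a Y/T KO mean of 110% of Ctrl for the colon and 114% for the bladder. A whole-gene value in whole tissue does not read the floxed exon apart and so is no check of recombination. Of the 10 smooth muscle markers, 8 in the colon and 5 in the bladder were lower in every Y/T KO library than in every Ctrl library, and their summed TPM was 8543 to 9461 in Ctrl colon, 5628 to 6606 in Y/T KO colon, 37746 to 51057 in Ctrl bladder, and 19438 to 35778 in Y/T KO bladder. On TPM scaled by size factors, 7.87% of all tested genes were lower and 8.24% higher without overlap in Y/T KO colon. In Y/T KO bladder these shares were 11.4% and 10.6%. Of the other marker lists, in Y/T KO colon 3 of 10 colonic epithelium, 3 of 10 neuronal, 1 of 10 urothelium, and 1 of 8 striated muscle markers were lower without overlap, and 1 of 5 fibroblast and 1 of 5 leukocyte markers were higher. In Y/T KO bladder 2 of 10 urothelium and 1 of 5 leukocyte markers were lower, and 2 of 6 endothelial, 1 of 10 neuronal, 1 of 10 colonic epithelium, 1 of 5 fibroblast, and 1 of 8 striated muscle markers were higher, while of the 2 markers of interstitial cells of Cajal *Kit* was higher and *Ano1* lower. These marker counts are on TPM as deposited, unlike the shares over all genes. On scaled TPM *Smtn* and *Vil1* in the colon and *Pecam1* and *Tek* in the bladder overlapped. *Nos1* in the colon and *Upk3a* in the bladder were then lower without overlap. The part of these marker lists in the results was not tested. In whole tissue, fewer cells of a type and less RNA per cell cannot be told apart. In the bladder 3 libraries stood apart through striated muscle transcripts: *Myh4*, a skeletal myosin, lay at 46.1 TPM in Ctrl mouse 784, 409 in Y/T KO mouse 783, and 432 in Y/T KO mouse 780, and was listed at 0 in the other 3. The summed TPM of the 8 striated muscle markers was 681 in Ctrl mouse 784 and 4483 and 4749 in Y/T KO mice 783 and 780, against 309 to 365 in the other bladder libraries. The limma results of the 10 genes that use the bladder were therefore also run without these 3 libraries, unlike those of other single genes. This leaves 1 Y/T KO bladder library, assumed to vary like the other groups. That fit takes its spread from the colon libraries too, so its SE is not like that of the fit of the bladder alone.

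Genotype was compared within each tissue, 3 mice against 3, with limma on log2(scaled TPM + 0.1) over all genes tested, with Benjamini-Hochberg adjustment. Coordinates are GRCm38 as deposited. None of the 10 genes passed an adjusted p of 0.05 in either tissue, a threshold that 0.137% of all tested genes passed in the colon and 0.302% in the bladder. At an unadjusted p under 0.05 stood 3 of 10 in the colon, all lower in Y/T KO (*Atp2b4*, *Pln*, *Atp2b1*; 4.59% of all tested genes were lower and 5.14% higher at that level), and 2 of 10 in the bladder, *Atp2b4* lower (8.20% of all) and *Atp2a2* higher (6.64% of all). Without the 3 striated muscle libraries no member passed in the bladder either. There *Stim1* moved from 0.18 to 0.42 ± 0.21 SE, *Ryr3* from 0.08 to 0.52 ± 0.47 SE, *Itpr1* from 0.14 to 0.26 ± 0.27 SE, *Atp2b1* from -0.27 to -0.42 ± 0.33 SE, and *Orai1* from -0.28 to -0.0058 ± 0.37 SE on the log2 scale. *Pln* was at -0.09 ± 0.38 SE, *Ryr2* gave no value after the filter, and the other 3 members are given with their levels. The median difference of the 10 genes was -0.30 on the log2 scale in the colon and -0.19 in the bladder, beside 0.0063 and 0.0020 over all genes tested. Levels of all 10 genes are plotted by library, and the genotype differences with their intervals follow.

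**Figure D1:**
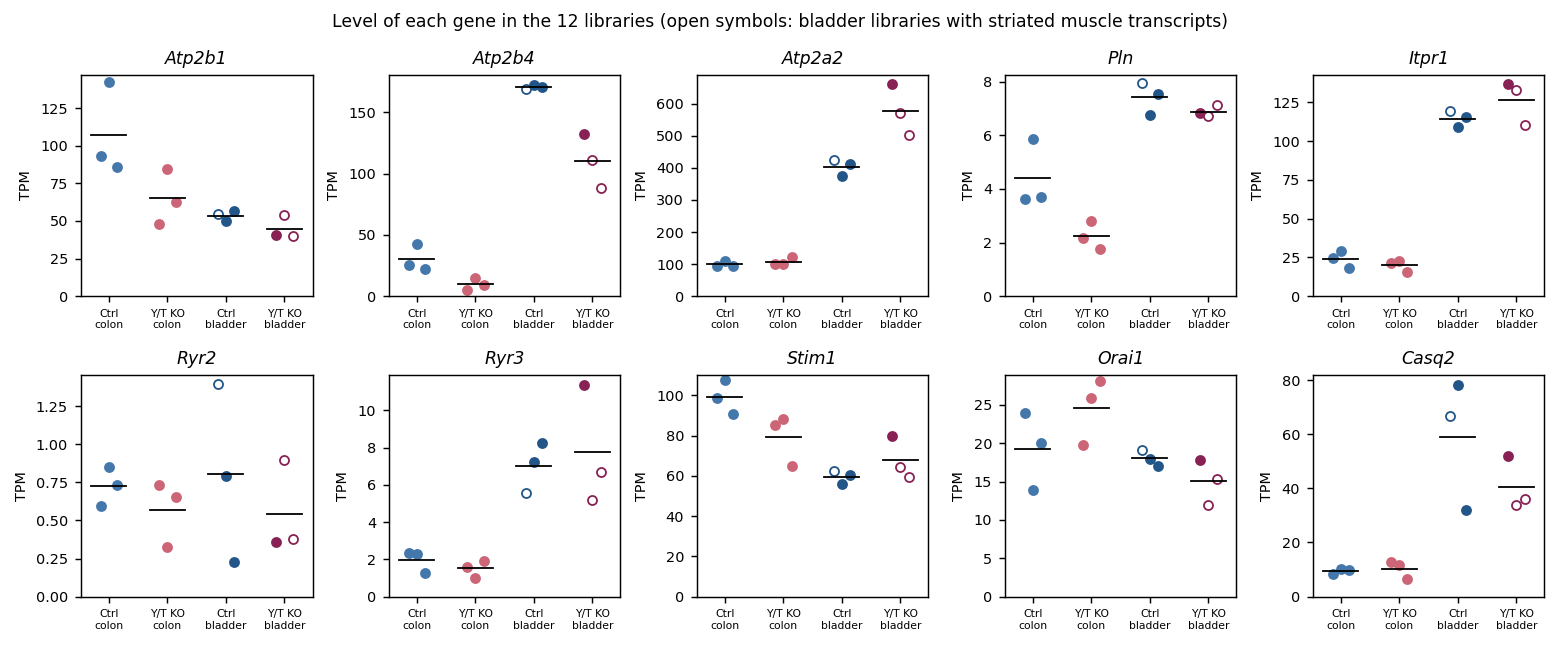
TPM (vertical axes, starting at 0) of each of the 10 genes in the 12 libraries, by group; each point is 1 library, the line is the mean of 3, and open symbols are the 3 bladder libraries with striated muscle transcripts. In the colon the Y/T KO points of *Atp2b4* (5.40 to 15.3 TPM) lie below all Ctrl points (21.9 to 42.5 TPM), and *Atp2b4*, *Atp2a2*, *Itpr1*, *Casq2*, and *Ryr3* are higher in the bladder.

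**Figure D2:**
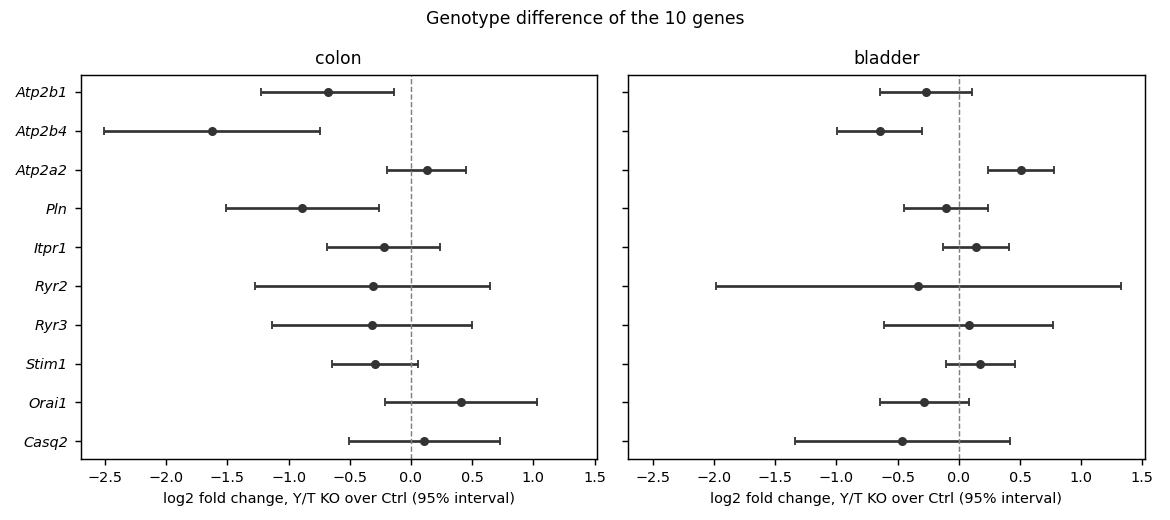
Difference between Y/T KO and Ctrl on the log2 scale (horizontal axis) with the 95% interval of the limma fit, for the 10 genes in each tissue. The intervals of *Atp2b4*, *Pln*, and *Atp2b1* in the colon and of *Atp2b4* and *Atp2a2* in the bladder do not reach 0, and none of these passed the adjusted test.

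*Atp2b4* encodes PMCA4, a pump that moves calcium out across the plasma membrane, and had the lowest p of the 10 genes in the colon. It lay at 25.6, 42.5, and 21.9 in Ctrl colon against 5.40, 15.3, and 8.86 TPM in Y/T KO colon, and at 169, 172, and 170 in Ctrl bladder against 132, 111, and 87.9 TPM in Y/T KO bladder. In both tissues all 3 Y/T KO values were under all 3 Ctrl values. The Y/T KO level was 34.1% of Ctrl in the colon (log2 difference -1.63 ± 0.38 SE, unadjusted p = 0.00301, limma adjusted p = 0.277) and 64.5% in the bladder (-0.65 ± 0.14 SE, unadjusted p = 0.00321, adjusted p = 0.148). Without the 3 striated muscle libraries the bladder difference was -0.41 ± 0.53 SE, in the fit that also held the colon libraries. The 95% interval in the colon ran from -2.51 to -0.74. The genes lower in every Y/T KO than in every Ctrl library numbered 4 of 10 in the colon, *Atp2b1*, *Atp2b4*, *Pln*, and *Stim1*, beside 7.87% of all genes tested, and none was higher without overlap, beside 8.24%. In the bladder *Atp2b4* alone was lower without overlap, beside 11.4%.

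*Atp2b1* (ENSMUSG00000019943, chromosome 10, 98914406 to 99026143, plus strand) encodes PMCA1, the pump form present in nearly every cell type. It lay at 93.0, 142, and 85.7 in Ctrl colon against 48.3, 84.3, and 62.5 TPM in Y/T KO colon. All 3 Y/T KO values were under all 3 Ctrl values, the highest of the former just under the lowest of the latter. The log2 difference was -0.68 ± 0.23 SE (unadjusted p = 0.020, adjusted p = 0.455), a Y/T KO level of 63.0% of Ctrl. In the bladder the values were 54.4, 49.8, and 56.5 in Ctrl against 40.5, 53.9, and 40.2 TPM in Y/T KO, which overlapped (-0.27 ± 0.16 SE, adjusted p = 0.468). The summed TPM of the 4 plasma membrane pumps was 108 to 185 in Ctrl colon against 53.9 to 99.7 in Y/T KO colon, and 223 to 229 in Ctrl bladder against 130 to 177 in Y/T KO bladder. *Atp2b4* held 20.3% to 23.0% of that sum in Ctrl colon and no more than 15.3% in Y/T KO colon, while in the bladder it held 74.4% to 77.2% in Ctrl and 66.1% to 74.6% in Y/T KO.

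**Figure D3:**
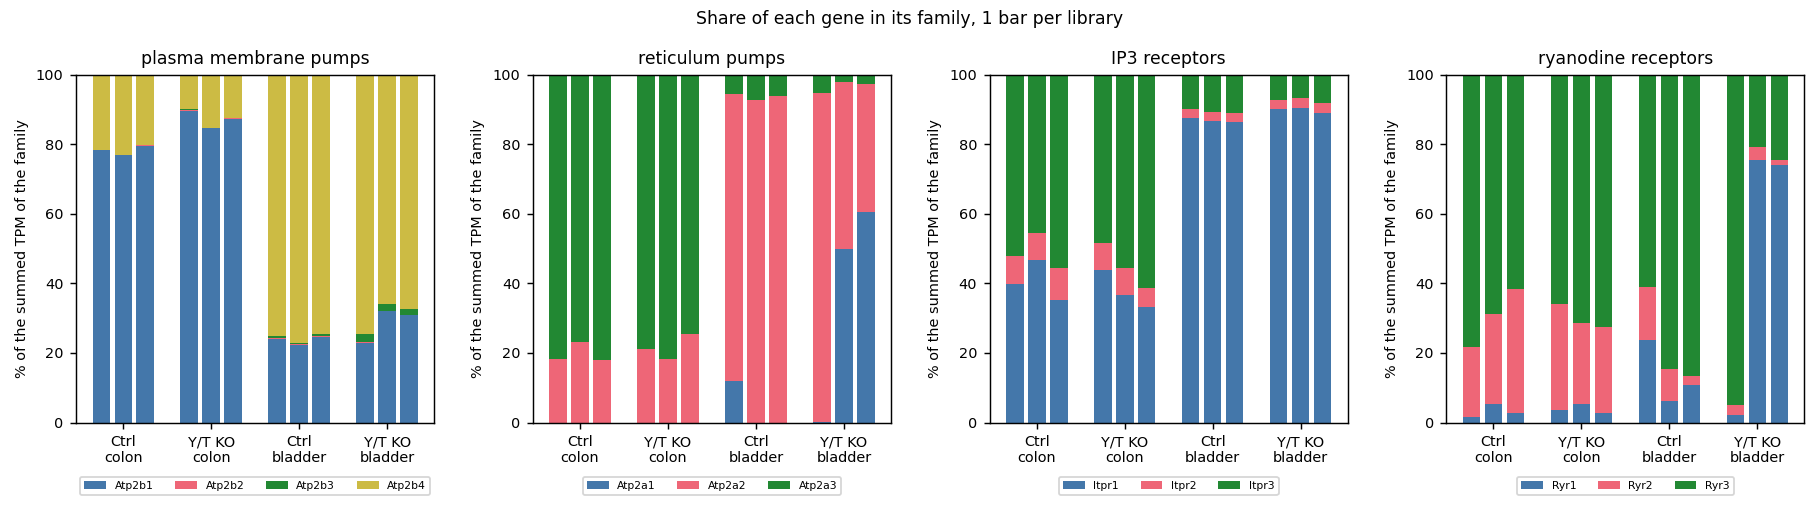
Share of each gene in the summed TPM of its family (vertical axis, percent), 1 bar per library in the 4 groups, for plasma membrane pumps, reticulum pumps, IP3 receptors, and ryanodine receptors. *Atp2b1* leads its family in the colon and *Atp2b4* in the bladder, and *Atp2a1* and *Ryr1* hold their largest shares in the bladder of Y/T KO mice 783 and 780, followed by Ctrl mouse 784, the libraries with striated muscle transcripts.

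*Atp2b1*, *Atp2b4*, and *Pln* had the 3 lowest p-values in the colon and varied together over the libraries, so the bases before their RefSeq start sites are shown (GRCm38.p6, 5′ to 3′ on the strand of the gene, without bases in annotated exons of the gene). Capitals mark the 6-base TEAD motif GGAATG read on either strand, TEAD factors being the DNA-binding partners of YAP and TAZ. *Atp2b4* is shown at chr1:133753750-133753997 on the minus strand, *Pln* at chr10:53337436-53337666 on the plus strand, and *Atp2b1* at chr10:98914902-98915151 on the plus strand. The *Atp2b1* stretch precedes the second of its 2 RefSeq starts, 746 bases inside the deposited gene, and so is not the sequence before the gene.
Atp2b4: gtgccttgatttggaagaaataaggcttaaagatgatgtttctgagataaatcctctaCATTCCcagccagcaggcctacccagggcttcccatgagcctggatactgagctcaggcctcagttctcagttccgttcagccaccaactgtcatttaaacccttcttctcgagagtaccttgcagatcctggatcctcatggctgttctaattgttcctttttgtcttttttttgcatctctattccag
Pln: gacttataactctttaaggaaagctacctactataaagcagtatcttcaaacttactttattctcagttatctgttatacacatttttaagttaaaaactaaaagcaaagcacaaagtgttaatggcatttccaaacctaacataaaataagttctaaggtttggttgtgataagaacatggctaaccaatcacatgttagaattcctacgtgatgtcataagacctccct
Atp2b1: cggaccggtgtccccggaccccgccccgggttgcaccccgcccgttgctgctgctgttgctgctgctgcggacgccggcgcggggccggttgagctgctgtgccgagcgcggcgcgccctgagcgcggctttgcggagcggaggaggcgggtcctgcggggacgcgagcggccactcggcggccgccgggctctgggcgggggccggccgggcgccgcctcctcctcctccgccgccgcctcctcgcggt

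The *Atp2b4* window holds 1 match, on the opposite strand and 192 bases before the start site, and the other windows hold none. RefSeq promoter windows of 300 bases were found for 7 of the 10 genes (not for *Atp2a2*, *Itpr1*, and *Ryr3*), 8 windows in all since *Atp2b1* has more than 1, and this was the only match among the 8 to the TEAD motif, beside 14.7% of 32851 mouse promoter windows. The CArG box, bound by serum response factor in smooth muscle genes, was searched on both strands and matched none of the 8 and 1.63% of all windows. The RefSeq start of *Atp2b4* used here, at position 133753747, lies 47294 bases inside the deposited gene (chromosome 1, 133699457 to 133801041, minus strand). It falls within exon 2 of a longer transcript, for which the bases printed above are intron. A match is a run of letters and says nothing of binding.

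*Atp2a2* encodes a SERCA pump found in cardiac, slow skeletal, and smooth muscle, and is at chromosome 5, 122453513 to 122502225, on the minus strand. Its TPM in whole tissue does not show which cells hold the transcript. *Atp2a2* lay at 95.6, 111, and 94.7 in Ctrl colon against 101, 99.4, and 121 TPM in Y/T KO colon. Genotypes overlapped there (0.13 ± 0.14 SE, adjusted p = 0.774). In the bladder it lay at 423, 375, and 412 in Ctrl against 662, 569, and 501 TPM in Y/T KO. All 3 Y/T KO bladder libraries lay above all 3 Ctrl libraries, at 143% of the Ctrl level (0.51 ± 0.11 SE, 95% interval 0.24 to 0.78, unadjusted p = 0.00318, adjusted p = 0.148), beside 10.6% of all tested genes that were higher without overlap. Among the Y/T KO libraries it was highest in mouse 782, the one without striated muscle transcripts, and without the 3 striated muscle libraries the difference was 0.72 ± 0.19 SE (adjusted p = 0.556). *Atp2a1*, the SERCA pump of fast skeletal muscle, reached 593 TPM in Y/T KO mouse 783 and 826 TPM in Y/T KO mouse 780, and lay at 60.4 TPM in Ctrl mouse 784, and at no more than 0.409 TPM in the other bladder libraries.

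In the colon *Atp2a2* was not the leading SERCA transcript. *Atp2a3*, a SERCA form of epithelial and blood cells, lay at 357 to 448 TPM and held 76.9% to 82.0% of the summed SERCA TPM in Ctrl colon and 74.6% to 81.8% in Y/T KO colon. Its share was far smaller in the bladder, 5.59% to 7.20% in Ctrl and 2.19% to 5.37% in Y/T KO.

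*Pln* lay at 3.63, 5.86, and 3.71 in Ctrl colon against 2.19, 2.82, and 1.75 TPM in Y/T KO colon. Every Y/T KO colon library was below every Ctrl one, at 53.0% of the Ctrl level (-0.89 ± 0.27 SE, 95% interval -1.51 to -0.27, unadjusted p = 0.0112, adjusted p = 0.405). In the bladder the levels were 7.95, 6.75, and 7.54 in Ctrl against 6.81, 6.71, and 7.11 TPM in Y/T KO, and they overlapped (-0.10 ± 0.14 SE, adjusted p = 0.770). *Pln* (chromosome 10, 53337667 to 53345987, plus strand) overlaps *Cep85l* on the other strand, and whether the authors counted by strand is not given in the sources used here. Of the other small pump regulators, *Sln*, encoding sarcolipin, was near the floor in the colon, at 0, 0.220, and 0.318 in Ctrl against 0.828, 1.30, and 2.90 TPM in Y/T KO. *Sln* was listed at 0 in the 3 bladder libraries without striated muscle transcripts and at 1.52, 3.55, and 6.55 TPM in Ctrl mouse 784 and Y/T KO mice 783 and 780.

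*Itpr1* (chromosome 6, 108213096 to 108551109, plus strand) encodes type 1 of the IP3 receptors, through which muscarinic agonists release stored calcium. It lay at 24.6, 29.5, and 18.5 in Ctrl colon, 21.3, 22.9, and 15.9 TPM in Y/T KO colon, 119, 109, and 115 TPM in Ctrl bladder, and 137, 133, and 110 TPM in Y/T KO bladder. The genotypes overlapped in both tissues (-0.22 ± 0.20 SE, adjusted p = 0.724 in the colon and 0.14 ± 0.11 SE, adjusted p = 0.597 in the bladder). *Itpr1* held 35.1% to 46.7% of the IP3 receptor TPM in Ctrl colon, where *Itpr3* held 45.4% to 55.6%, and 86.4% to 87.5% in Ctrl bladder, where *Itpr3* held 9.76% to 11.0%.

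The ryanodine receptors were far less abundant. *Ryr3* lay at 2.32, 2.27, and 1.27 in Ctrl colon against 1.60, 1.00, and 1.92 TPM in Y/T KO colon, and at 5.54, 7.24, and 8.26 in Ctrl bladder against 11.4, 5.17, and 6.66 TPM in Y/T KO bladder. *Ryr2*, the cardiac form, stayed at 0.226 to 1.40 TPM in all 12 libraries, with Ctrl bladder alone spanning that whole range (1.40, 0.792, and 0.226 TPM). Neither passed the genotype test in either tissue (adjusted p from 0.783 to 0.918 for *Ryr3* and 0.817 to 0.857 for *Ryr2*). *Ryr1*, the skeletal form, was at 18.7 TPM in mouse 783 and 20.1 TPM in mouse 780 of the Y/T KO bladder group and at no more than 2.15 TPM in the other 10 libraries. *Ryr2* lies at chromosome 13, 11553102 to 12106945, and *Ryr3* at chromosome 2, 112631355 to 113217096, both on the minus strand, and *Ryr3* overlaps *Aven* on the other strand.

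*Stim1*, the store sensor (chromosome 7, 102267806 to 102437319, plus strand), lay at 98.8, 108, and 90.6 in Ctrl colon against 85.0, 88.2, and 64.6 TPM in Y/T KO colon, without overlap. The log2 difference of -0.29 ± 0.15 SE did not pass the test (unadjusted p = 0.0876, adjusted p = 0.580), and it was -0.16 without Y/T KO mouse 780. In the bladder it lay at 62.6, 56.0, and 60.3 in Ctrl against 79.6, 64.3, and 59.6 TPM in Y/T KO, which overlapped (0.18 ± 0.12 SE, adjusted p = 0.537). *Stim1* held 89.0% to 90.5% of the *Stim1* and *Stim2* TPM in Ctrl colon and 84.9% to 85.8% in Y/T KO colon.

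*Orai1*, the channel opened by STIM1 (chromosome 5, 123015074 to 123030456, plus strand), lay at 23.9, 13.8, and 20.0 in Ctrl colon against 19.8, 25.9, and 28.1 TPM in Y/T KO colon, and at 19.1, 18.0, and 17.1 in Ctrl bladder against 17.8, 11.98, and 15.3 TPM in Y/T KO bladder. The genotypes overlapped in both tissues, with differences of 0.41 ± 0.27 SE (adjusted p = 0.648) in the colon and -0.28 ± 0.15 SE (adjusted p = 0.435) in the bladder. Without Ctrl colon mouse 786, which held the lowest value, the colon difference was 0.13. *Orai3* was the more abundant channel, with 43.4% to 51.6% of the ORAI TPM in Ctrl colon and 60.6% to 65.2% in Ctrl bladder, where *Orai1* held 25.0% to 35.4% and 20.5% to 25.0%.

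*Casq2* (chromosome 3, 102086415 to 102146514, plus strand) encodes calsequestrin 2, the cardiac and smooth muscle store buffer. It lay at 8.29, 10.2, and 9.73 in Ctrl colon, 12.8, 11.6, and 6.48 TPM in Y/T KO colon, 66.6, 78.3, and 31.9 TPM in Ctrl bladder, and 51.9, 33.9, and 36.1 TPM in Y/T KO bladder. The genotypes overlapped in both tissues (0.11 ± 0.27 SE, adjusted p = 0.912 in the colon and -0.46 ± 0.36 SE, adjusted p = 0.595 in the bladder). Without the 3 striated muscle libraries the bladder difference turned to 0.03 ± 0.54 SE. *Casq1*, the skeletal form, was at 246 TPM in mouse 783 and 207 TPM in mouse 780 of the Y/T KO bladder group, at 28.6 TPM in Ctrl bladder mouse 784, and at 5.38 to 7.78 TPM in the other bladder libraries.

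Between tissues most of the 10 genes passed the test. In Ctrl mice 7 of the 10 genes passed an adjusted p of 0.05 between bladder and colon in the fit of all 12 libraries, beside 51.4% of the 19439 genes tested (25.9% higher and 25.6% lower in the bladder). Higher in the bladder were *Atp2b4* (4.94-fold), *Casq2* (4.85-fold), *Itpr1* (4.01-fold), *Atp2a2* (3.35-fold), and *Ryr3* (2.96-fold), and lower were *Atp2b1* (2.33-fold) and *Stim1* (1.98-fold), with adjusted p from 4.00e-07 for *Atp2a2* to 0.00199 for *Ryr3*. *Pln* was 1.43-fold higher (adjusted p = 0.0626) and passed with unscaled TPM (adjusted p = 0.0154) and without Ctrl colon mouse 786 (adjusted p = 0.0206). Without the 3 striated muscle libraries these 7 genes passed again (adjusted p from 1.70e-05 to 0.00403) and *Pln* did not (adjusted p = 0.214). *Orai1* (adjusted p = 0.273) and *Ryr2* (adjusted p = 0.652) did not pass, although *Orai1* was lower in the bladder with an adjusted p of 0.0219 without Ctrl colon mouse 786. The smooth muscle markers also summed to more TPM in every bladder library than in any colon library, and their part in these differences was not tested.

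In Y/T KO mice 9 of the 10 genes passed, beside 52.4% of all genes (26.1% higher and 26.3% lower): *Atp2b4* (9.90-fold), *Itpr1* (5.24-fold), *Atp2a2* (4.44-fold), *Ryr3* (3.97-fold), *Casq2* (3.32-fold), and *Pln* (2.51-fold) were higher in the bladder, and *Orai1* (1.98-fold), *Atp2b1* (1.72-fold), and *Stim1* (1.41-fold) were lower. Without the 3 striated muscle libraries 7 passed, *Stim1* (adjusted p = 0.287) and *Orai1* (adjusted p = 0.128) being lost. With unscaled TPM, which moves the median of all genes by 0.25 (Ctrl) and 0.27 (Y/T KO) toward the bladder on the log2 scale, *Atp2b1* (adjusted p = 0.0766) and *Stim1* (adjusted p = 0.223) did not pass. The scaling also set the balance of the calls over all genes: 5026 higher and 4970 lower in Ctrl with it, and 6338 and 3527 without, and in Y/T KO 5075 and 5103 with it, and 6719 and 3648 without.

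Ordered by mean TPM, Ctrl colon ran from *Atp2b1* (107 ± 30.7 SD, n = 3), *Atp2a2* (100 ± 9.22), and *Stim1* (99.0 ± 8.48) through *Atp2b4* (30.0 ± 11.0), *Itpr1* (24.2 ± 5.50), and *Orai1* (19.3 ± 5.08) to *Casq2* (9.42 ± 1.01), *Pln* (4.40 ± 1.27), *Ryr3* (1.95 ± 0.588), and *Ryr2* (0.726 ± 0.130). Within the first 3 and within the next 3, neighbours overlapped between libraries, and the other steps did not. Ctrl bladder ran from *Atp2a2* (403 ± 25.1 SD, n = 3), *Atp2b4* (171 ± 1.61), and *Itpr1* (114 ± 5.38) through *Stim1* (59.6 ± 3.38), *Casq2* (58.9 ± 24.2), and *Atp2b1* (53.5 ± 3.44) to *Orai1* (18.1 ± 1.01), *Pln* (7.41 ± 0.612), *Ryr3* (7.01 ± 1.37), and *Ryr2* (0.806 ± 0.586). There *Stim1*, *Casq2*, and *Atp2b1* overlapped with their neighbours, as did *Pln* with *Ryr3*. In Y/T KO colon *Atp2b4* (9.84 ± 5.00 SD) stood seventh, next to *Casq2* (10.3 ± 3.35).

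Whether the genotype difference itself differed between tissues was tested as the interaction term of the limma fit over the 16298 genes tested in both. No member passed, beside 0.0491% of all genes, and 4 of 10 had an unadjusted p under 0.05 with the bladder difference above the colon difference (5.61% of all genes): *Pln* (0.81, unadjusted p = 0.0215, adjusted p = 0.313), *Stim1* (0.49, unadjusted p = 0.0280, adjusted p = 0.338), *Atp2a2* (0.40, unadjusted p = 0.0385, adjusted p = 0.366), and *Atp2b4* (1.00, unadjusted p = 0.0486, adjusted p = 0.391). Without the 3 striated muscle libraries *Pln* (0.81, unadjusted p = 0.106, adjusted p = 0.844) and *Atp2b4* (1.24, unadjusted p = 0.0850, adjusted p = 0.841) were no longer under that level in the limma fit. *Stim1* (0.73, unadjusted p = 0.0177, adjusted p = 0.699) and *Atp2a2* (0.61, unadjusted p = 0.0235, adjusted p = 0.742) still were.

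The log2 level of each gene was also set against the mean log2 level of the 10 smooth muscle markers in its library. That reference was 66.7% of Ctrl in Y/T KO colon, without overlap, and 64.7% in Y/T KO bladder, with overlap. A gene with an unchanged TPM therefore rises against it. It is a level of transcripts, not a count of muscle cells, and the paper lists *Acta2*, *Actg2*, and *Tagln* as down-regulated in both tissues. Against this reference *Atp2b4* was still lower in Y/T KO colon, at 47.3% of Ctrl and without overlap. *Atp2b1* and *Pln* overlapped there, at 91.1% and 78.9%. Both turned above 0 on the log2 scale (0.30 and 0.09) with *Myh11* alone as the reference. With *Myh11* alone *Atp2b4* also overlapped between the genotypes in the colon. Y/T KO mouse 783 (15.3 TPM, *Myh11* at 229) then lay above Ctrl mouse 787 (21.9 TPM, *Myh11* at 377). Against the 10 markers *Orai1* (194%) and *Atp2a2* (160%) were higher in all 3 Y/T KO colon libraries. In their own TPM both overlapped between the genotypes. In the bladder *Atp2b4* stood at 98.6% of Ctrl against the markers, with overlap. There *Atp2a2* (220%), *Stim1* (174%), *Itpr1* (170%), and *Ryr3* (163%) were higher without overlap. In their own TPM *Stim1*, *Itpr1*, and *Ryr3* overlapped between the genotypes. The share of all genes that stand apart against the markers was not computed. Exact two-sided permutation tests over 3 against 3 libraries cannot go below p = 0.10, which is the value for each of these 7 pairs without overlap (0.286 after adjustment over the 20 tests).

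Ratios between members within a library compare their levels in the same RNA. The *Pln* to *Atp2a2* ratio was lower in every Y/T KO than in every Ctrl library in both tissues, at 49.4% of the Ctrl ratio in the colon and 65.3% in the bladder. Its log2 values were -4.68, -4.22, and -4.64 in Ctrl colon, -5.47, -5.09, and -6.03 in Y/T KO colon, -5.72, -5.78, and -5.75 in Ctrl bladder, and -6.58, -6.39, and -6.12 in Y/T KO bladder. In the bladder it was lowest in mouse 782, the Y/T KO library without striated muscle transcripts. *Atp2b4* to *Atp2b1* was lower without overlap in Y/T KO colon (51.9% of Ctrl) and overlapped in the bladder (76.8%), and *Orai1* to *Stim1* was lower without overlap in Y/T KO bladder (72.9%) and overlapped in the colon (163%). *Itpr1* to *Ryr2*, *Ryr3* to *Ryr2*, and *Casq2* to *Atp2a2* overlapped in both tissues. Each ratio without overlap had an exact permutation p = 0.10, the smallest possible, and 0.30 after adjustment over 12 tests. The share of all gene pairs whose ratio stands apart was not computed.

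**Figure D4:**
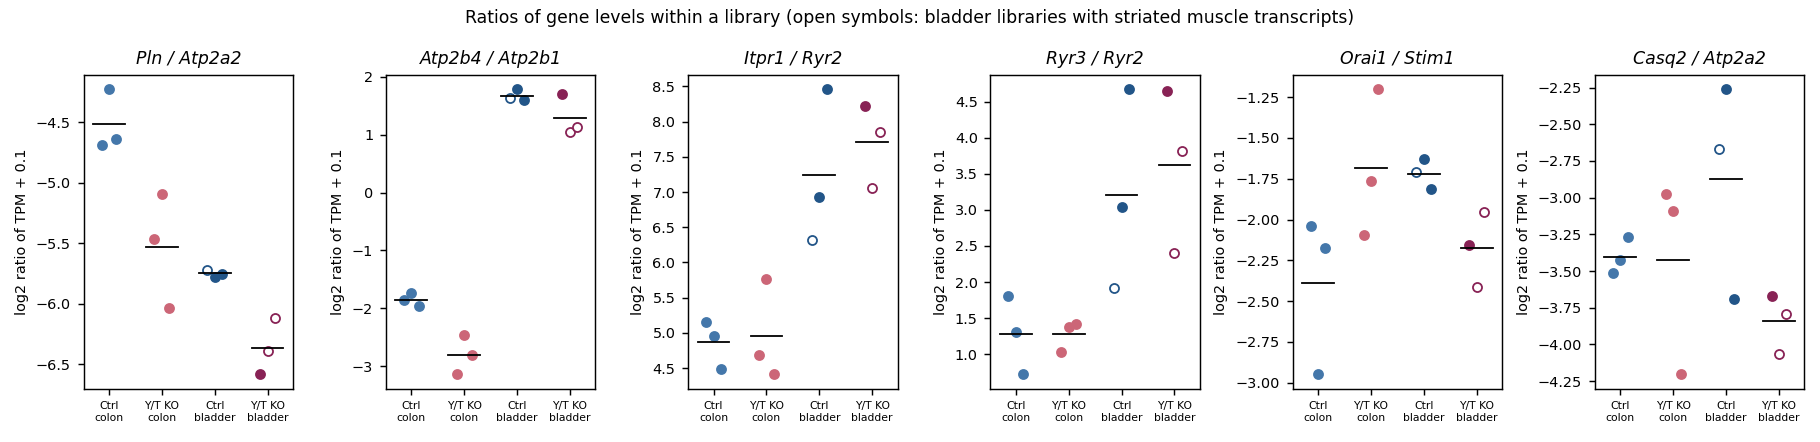
Log2 ratio of TPM + 0.1 of 2 genes within a library (vertical axes, each on its own range), by group; points are libraries, lines are means of 3, and open symbols are the bladder libraries with striated muscle transcripts. The *Pln* to *Atp2a2* ratio is lower in Y/T KO than in Ctrl in both tissues without overlap (49.4% and 65.3% of Ctrl).

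Over the 12 libraries, with each tissue centred on its own mean, the closest members were *Atp2b1*, *Atp2b4*, and *Pln* (Pearson r of 0.92 for *Atp2b1* with *Atp2b4*, 0.87 for *Atp2b4* with *Pln*, and 0.84 for *Atp2b1* with *Pln*) and *Itpr1* with *Stim1* (0.85). The 3 values of the pump genes and *Pln* were 0.98, 0.92, and 0.90 within the 6 colon libraries and 0.62, 0.39, and 0.60 within the 6 bladder libraries, while *Itpr1* with *Stim1* was 0.85 and 0.86. These are descriptions over few libraries that share genotype, mouse, and tissue composition. In the colon Ctrl mouse 786 had the largest size factor (1.11). It was highest in deposited TPM for *Atp2b1*, *Atp2b4*, *Pln*, *Itpr1*, *Stim1*, and *Ryr2*, and stood apart for other transcripts as well. It held the highest TPM for 20 of 64 detected markers, against 6 to 14 in each other colon library, among them 5 of 10 neuronal, 3 of 5 fibroblast, 3 of 6 endothelial, 3 of 10 smooth muscle, and 2 of 5 leukocyte markers. *Ano1*, a chloride channel of interstitial cells of Cajal, was at 252 TPM there against 68.2 to 105 in the other colon libraries, *Dcn* of fibroblasts at 983 against 644 to 801, and *Ptprc* of leukocytes at 16.9 against 6.92 to 12.7. *Fkbp1a*, encoding a ryanodine receptor partner, was at 199.97 TPM against 92.0 to 94.0. Other markers did not stand out in mouse 786. *Kit*, also of interstitial cells of Cajal, was at 33.8 TPM there against 20.3 to 48.4 in the other colon libraries. *Col1a1* of fibroblasts was at 142.9 against 143.0 to 259.5, and Ctrl mouse 788 held the highest TPM for 5 of 10 smooth muscle markers. The part of the makeup of the mouse 786 library in the values of the members was not tested. Without it the colon differences were -1.41 for *Atp2b4* (adjusted p = 0.551), -0.73 for *Pln* (adjusted p = 0.667), and -0.52 for *Atp2b1* (adjusted p = 0.716).

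**Figure D5:**
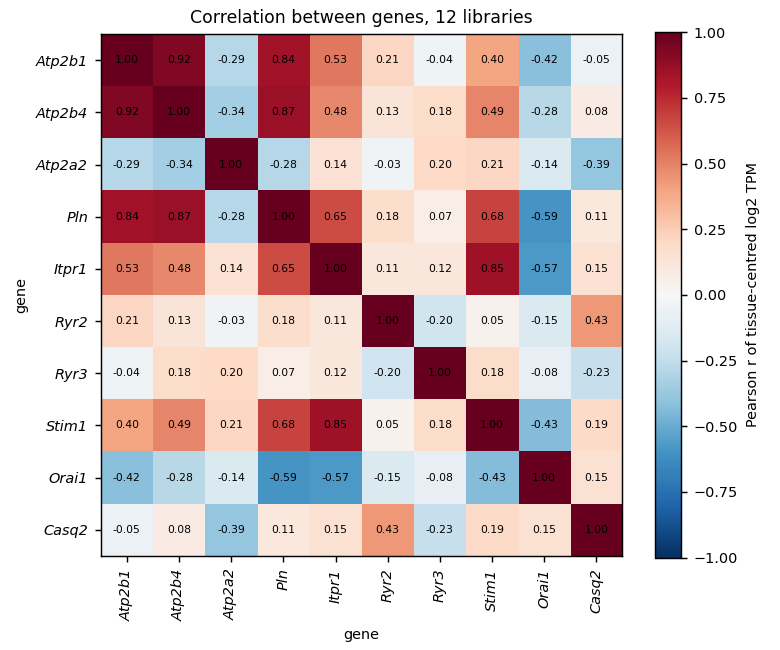
Pearson r between each pair of the 10 genes (both axes, colour and number) of log2 scaled TPM centred within each tissue, over 12 libraries. *Atp2b1*, *Atp2b4*, and *Pln* form the block with r from 0.84 to 0.92.

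Among the 16298 genes tested in both tissues, those most like *Atp2b4* on the same scale were *Nkd1* (r = 0.97), *Lims1* (0.97), and *Notch3* (0.94). For *Atp2b1* they were *Kmt5a* (0.95), *Prkcd* (0.93), and *Atp2b4* (0.92), and for *Pln* *Ankrd29* (0.95), *Phf24* (0.94), and *Phlpp2* (0.94). The closest to *Atp2a2* were *Ces1g* (0.94), *9330182L06Rik* (0.92), and *Gm14046* (0.90), to *Itpr1* *Gm49338* (0.91), *Cmtm4* (0.91), and *Tspan5* (0.91), and to *Stim1* *Ano10* (0.97), *Zfp536* (0.94), and *Snx25* (0.93). *Orai1* ran with *Ranbp3* (0.98), *Uqcr10* (0.97), and *Ndufa2* (0.97), *Casq2* with *Syncrip* (0.94), *Ap3b2* (0.92), and *Ppp1r26* (0.91), *Ryr2* with *Fam163a* (0.93), *Mlxipl* (0.91), and *Tox3* (0.89), and *Ryr3* with *Mir7-1* (0.92), *Trim3* (0.89), and *Spaca6* (0.89).

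Of 45 further genes of calcium pumps, exchangers, store release, store-operated entry, and reticulum calcium binding, 43 had a row, and 35 passed the filter on low values in the colon, as did 41 in the bladder. None passed the adjusted test in either tissue. At an unadjusted p under 0.05, 2 of 35 were higher in Y/T KO colon and none lower (9.73% of all genes in either direction), and in the bladder 6 of 41 were higher and 4 lower (14.8% of all). Their median difference was -0.02 for the colon and 0.13 for the bladder. The lowest p in the colon belonged to *Rcn3*, a reticulum calcium-binding protein, at 37.3, 35.9, and 39.0 in Ctrl against 69.4, 122, and 80.7 TPM in Y/T KO (1.27 ± 0.22 SE, unadjusted p = 0.000407, adjusted p = 0.117), and to *Sln* (2.76 ± 0.69 SE, unadjusted p = 0.00401, adjusted p = 0.314). In the bladder it belonged to *Trdn*, the ryanodine receptor partner triadin, at 26.2, 14.5, and 13.4 in Ctrl against 35.2, 61.4, and 72.5 TPM in Y/T KO (1.64 ± 0.38 SE, unadjusted p = 0.00415, adjusted p = 0.159), and to *Itpr3* at 13.3, 13.5, and 14.7 in Ctrl against 11.0, 9.76, and 10.2 TPM in Y/T KO (-0.42 ± 0.11 SE, unadjusted p = 0.00613, adjusted p = 0.176). *Trdn* was highest in the 2 Y/T KO libraries with striated muscle transcripts, whose part in that difference was not tested.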

How the data were processed

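RNA from whole distal colon and urinary bladder was made into stranded polyadenylated libraries. Per the labels and the study's methods, the authors aligned reads to GRCm38 with HISAT2 and ran StringTie (versions not given in the sources used here). The TPM, FPKM, and coverage signal (mean read depth over a gene) of each gene were deposited by the authors per library. The DESeq2 counts of the authors were not used here. Rows were summed by gene identifier, and 53462 of 54532 genes have the same coordinates in GENCODE M21. Aligned bases per library were taken from the ratio of coverage to FPKM. The counting error of a single TPM is unknown.

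TPM was divided by median-of-ratios size factors, and a gene was kept where 3 or more of a tissue's 6 libraries reached 0.5 TPM. Kept genes were fitted with limma 3.58.1 in R 4.3.3 (lmFit, eBayes with trend and robust) on log2(TPM + 0.1), two-sided; fold changes are on that scale and understate changes of low genes. The tissue and interaction terms came from all 12 libraries. Mice 788, 783, and 780 gave both tissues, so mouse numbers in the labels pair those libraries; same-mouse deviations correlated at -0.02, 0.09, and 0.06. Ratios were tested by exact permutation (scipy 1.17.1). Tables and figures used Python 3.11.15 and matplotlib 3.10.9. The pipeline was tested on simulated data.

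The genes, lists, and tests were chosen with earlier results of these data known. All 10 members were named; of the wider list, the family relatives and the 2 lowest p-values in each tissue; and the 3 genes most like each member. Other genes were chosen after their values were seen. Alternatives were other pseudocounts, filters, scaling, FPKM, limma options, a joint fit, a mouse block, each library left out, and, chosen after seeing the data, the 3 striated muscle libraries left out and pseudocounts and omissions for the ratios.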

Additional observations from a re-analysis of the deposited data

Results flagged for a closer look

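In 2 genes of the wider calcium list, and in none of the 10 members, the genotypes stood apart in opposite directions in the 2 tissues on scaled TPM. *Rcn3* was higher in every Y/T KO colon library and lower in every Y/T KO bladder library (as deposited, 167 to 242 TPM against 232 to 293, with overlap), and the bladder difference minus the colon difference was -1.73 ± 0.28 SE (limma interaction, unadjusted p = 5.48e-05, adjusted p = 0.0707). *Slc8a3*, a sodium-calcium exchanger, was lower in every Y/T KO colon library (0.407 to 0.503 TPM against 0.496 to 0.988 as deposited, with overlap) and higher in every Y/T KO bladder library, with an interaction of 1.23 ± 0.48 SE (adjusted p = 0.334). Neither interaction passed the adjusted threshold. In Y/T KO bladder mice 783 and 780, with striated muscle transcripts, *Rcn3* was at 167 and 169 and *Slc8a3* at 2.15 and 2.36 TPM as deposited. In Y/T KO bladder mouse 782 they were at 242 and 1.38 TPM, beside 232 and 1.28 TPM in Ctrl bladder mouse 784. The part of the striated muscle libraries in these bladder differences was not tested.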

How the results depend on the processing

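Within a tissue, the number of the 10 genes past the adjusted threshold was 0 in the colon and in the bladder under every alternative run, and the interaction count was 0 too. Over all genes, the 24 calls in the colon ranged from 5 (without Ctrl mouse 786, Y/T KO mouse 783, or Y/T KO mouse 780) to 75 (all 12 libraries in one fit), with 6 without a filter on low values, and the 55 in the bladder from 9 (without the 3 striated muscle libraries) to 67. With the mouse number as a block, the tissue counts stayed 7 and 9 of 10 and the interaction count 0, and the pairing changed no call of a member. No paired analysis was possible for genotype within a tissue because Ctrl and Y/T KO shared no mouse.

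With *Myh11* alone as the smooth muscle reference, the median over the 10 genes in the colon moved from 0.24 to 0.68. Signs turned only for log2 differences that had not passed a test. Leaving out 1 library at a time, *Casq2* in the colon ranged from -0.073 (without Y/T KO mouse 759) to 0.40, *Ryr3* in the bladder from -0.21 (without Y/T KO mouse 782; -0.06 without Ctrl mouse 784) to 0.30, *Ryr2* between tissues in Ctrl from -0.83 to 0.29 (without Ctrl bladder mouse 788), and the *Ryr2* interaction from -0.60 (without Ctrl bladder mouse 788) to 0.22. *Casq2* in the bladder turned to 0.027 without the striated muscle libraries, and the *Ryr2* interaction to -0.034 and -0.037 with pseudocounts of 0.5 and 1. The cause was not tested.

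With 3 mice a group and no read counts used, small differences in *Ryr2* and *Ryr3*, at a few TPM, could not be resolved. The limma p-values set each difference against the spread between libraries within groups, which holds mouse, dissection, and library variation together. In the main tissue and interaction fits, libraries of the same mouse were treated as independent.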
